A study of Homo sapiens with 20 samples.

Results

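H3K27 acetylation peaks that were called in most WT libraries and in few FBXW7 KO libraries of HCT-116 cells, a human colorectal cancer line, are described here. The peak lists of 16 libraries were merged into 58859 regions on chromosomes 1 to 22 and X, wherever peaks overlapped by at least 1 bp. A region was called WT-favoring when it held a peak in at least 6 more of the 8 WT than of the 8 KO libraries, and 746 regions (1.27%) met this rule. Of those, 29 differed by 8 libraries, 167 by 7 and 550 by 6. The mirrored rule, at least 6 more KO than WT libraries, was met by 5 regions (0.00849%). Only 2649 regions were called in at least 6 KO libraries and could meet it. A WT-favoring region has to be called in at least 6 WT libraries, which held for 9934 regions, so the 746 were 7.51% of the regions that could qualify and the 9188 others are used below as the comparison. The members were thus chosen by the presence of peaks in WT and KO libraries, so that difference is a description and was not tested.

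The study asked how FBXW7 and the histone deacetylase HDAC4 shape the response to the platinum drug oxaliplatin (OXPT). WT cells and cells knocked out for FBXW7 were transfected for 48 h with a control esiRNA (esiCT), a pool of enzymatically made small interfering RNAs, or with one against HDAC4 (esiHDAC4), and were left untreated (UNT) or received 50 µM OXPT for the last 24 h. Each of the 8 combinations had 2 libraries, A and B, and the labels add that 3 experiments were combined, so the distance between letters A and B may differ from that between single experiments. Whether the KO line is 1 clone is not stated in the sources used, and KO was compared with WT in this one pair of lines. Of the epithelial marker genes, KRT8 and KRT18 had a start-site peak in 16 of 16 libraries and EPCAM and KRT19 in 15. CDH1 had one in 8, CLDN3 in 7 and VIL1 in 1. Of 19 fibroblast, immune and endothelial markers, 16 had none in any library, and among the others COL1A1 had one in 11 libraries and PDGFRB in 1.

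Acetylation of lysine 27 on histone H3 (H3K27ac) marks the nucleosomes beside active promoters and enhancers. Broad clusters of such enhancers are called super-enhancers (SEs). FBXW7 is the substrate-recognition part of an SCF ubiquitin ligase that marks MYC, cyclin E and other phosphorylated proteins for the proteasome, and it is frequently mutated in colorectal cancer. HDAC4 is a class IIa deacetylase with little catalytic activity of its own that acts within corepressor complexes. A peak is called where reads pile up above the local background, and the ratio of pileup to background at the summit is the summit fold reported by the peak caller MACS2.

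The sequences under 7 summits are printed to show what kind of DNA the strongest WT-favoring regions hold. The first 5 were among the regions of highest median summit fold called in 8 WT and 0 KO libraries, the next was the start-site region with the highest fold, and the last belongs to a locus with many members. Each is the plus strand of hg38, 201 bases centred on the summit of the highest fold in a WT library. Capitals mark matches, on either strand, to short sequences of transcription factor motifs, all spelled out in the next paragraph.
Intergenic, nearest start site AKR1E2 at 121.7 kb, chr10:4662929-4663129: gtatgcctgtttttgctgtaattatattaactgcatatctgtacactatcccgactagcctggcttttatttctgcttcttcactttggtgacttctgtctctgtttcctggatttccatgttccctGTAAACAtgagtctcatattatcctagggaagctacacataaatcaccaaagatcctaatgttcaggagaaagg
Start site of MPP3, chr17:43832697-43832897: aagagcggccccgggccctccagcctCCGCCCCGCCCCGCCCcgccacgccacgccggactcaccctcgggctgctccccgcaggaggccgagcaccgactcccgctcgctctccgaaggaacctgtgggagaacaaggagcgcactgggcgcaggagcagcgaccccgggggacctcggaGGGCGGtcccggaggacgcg
Intron of THADA, chr2:43468841-43469041: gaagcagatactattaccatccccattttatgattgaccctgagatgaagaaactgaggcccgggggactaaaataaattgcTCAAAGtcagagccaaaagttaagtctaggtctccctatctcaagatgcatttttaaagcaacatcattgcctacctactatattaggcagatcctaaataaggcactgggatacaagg
Intergenic, nearest start site DRD1 at 95.6 kb, chr5:175345153-175345353: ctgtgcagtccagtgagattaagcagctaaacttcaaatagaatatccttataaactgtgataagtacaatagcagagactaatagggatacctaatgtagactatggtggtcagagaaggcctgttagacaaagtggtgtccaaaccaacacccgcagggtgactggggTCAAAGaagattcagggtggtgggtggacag
Intergenic, nearest start site TGFBR2 at 262.5 kb, chr3:30343300-30343500: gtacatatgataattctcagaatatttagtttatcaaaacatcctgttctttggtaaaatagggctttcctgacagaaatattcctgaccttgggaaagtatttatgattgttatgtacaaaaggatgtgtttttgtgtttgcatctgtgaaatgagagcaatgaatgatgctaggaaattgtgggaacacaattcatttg
Start site of RNPC3, chr1:103526222-103526422: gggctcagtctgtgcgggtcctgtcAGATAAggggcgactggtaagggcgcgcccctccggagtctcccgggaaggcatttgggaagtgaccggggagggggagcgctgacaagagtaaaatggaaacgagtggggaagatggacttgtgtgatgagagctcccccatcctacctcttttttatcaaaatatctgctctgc
Intergenic, nearest start site KIF20B at 525.9 kb, chr10:90227724-90227924: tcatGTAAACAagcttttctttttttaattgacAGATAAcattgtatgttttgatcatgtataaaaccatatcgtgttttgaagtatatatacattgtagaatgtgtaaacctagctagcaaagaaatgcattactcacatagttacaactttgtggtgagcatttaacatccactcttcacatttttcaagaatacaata

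The windows searched were the same 201 bases in all 9934 regions. Median GC content was 49.8% in WT-favoring windows and 55.7% in the others. Far from start sites it was 46% against 47.3%, and at start sites 56.2% against 61.2%. The KLF/SP sequence GGGCGG was present in 15.4% of WT-favoring windows, 24.9% of others and 24.2% of all. TCAAAG, the core of the TCF/LEF motif through which WNT signalling acts, was present in 12.5%, 9.46% and 9.68%. Among windows farther than 1 kb from a start site, TCAAAG was found in 75 of 424 WT-favoring windows (17.7%) and in 13.8% of the others, while at start sites it was found in 5.59% and 7.08%. The GATA sequence AGATAA was in 10.7%, 7.16% and 7.43% of WT-favoring, other and all windows. The FOXA sequence TGTTTAC was in 3.49%, 2.09% and 2.19%. Other shares lay closer together: the AP-1 sequence TGANTCA in 3.75%, 3.58% and 3.59%, the TEAD sequence GGAATG in 9.12%, 9.04% and 9.05%, the ETS sequence CCGGAAG in 2.01%, 2.92% and 2.85%, and the E-box CACGTG in 3.08%, 2.62% and 2.66%. These are shares of windows with matching letters, without a test, and GC content differed between the sets.

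The presence of the 746 regions varied widely among libraries of the same genotype. Of the WT esiCT libraries, UNT A called 730 (97.9%), UNT B 727 (97.5%), OXPT A 670 (89.8%) and OXPT B 449 (60.2%). In the same order the WT esiHDAC4 libraries called 660 (88.5%), 723 (96.9%), 639 (85.7%) and 625 (83.8%). The other 9188 regions behaved alike in WT cells, with 53.2% called in WT esiCT OXPT B and 83.5% to 99.2% in the remaining 7 libraries. In KO cells 3.89%, 26.5%, 19.4% and 10.3% of the 746 were called in the A libraries of esiCT UNT, esiCT OXPT, esiHDAC4 UNT and esiHDAC4 OXPT. The B libraries of the same conditions called 2.28%, 5.63%, 0.268% and 1.61%. Of the 522 calls of these regions in KO libraries, 449 (86%) came from letter A. The number absent from all KO libraries was 351, from all letter A KO libraries 394 and from all letter B KO libraries 677.

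**Figure D1:**
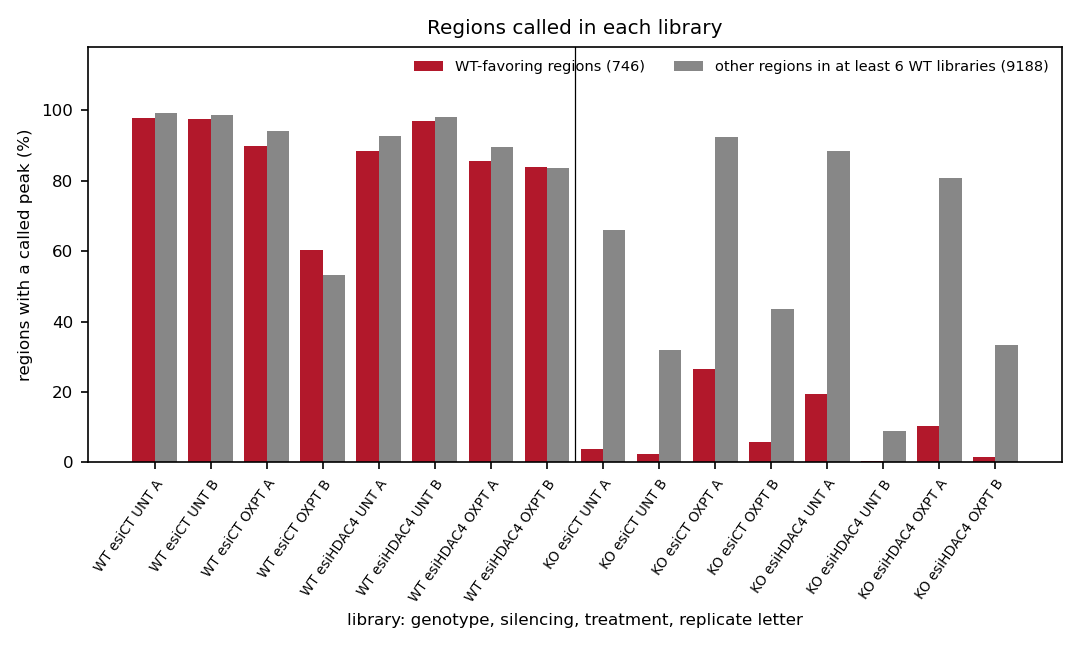
Percentage of the 746 WT-favoring regions (red) and of the 9188 other regions called in at least 6 WT libraries (grey) that held a called peak in each library. The other regions were called in 65.9% to 92.3% in the 4 letter A KO libraries and in 8.89% to 43.5% in the 4 letter B KO libraries.

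Depth moved with genotype in letter B, while in letter A the ranges of WT and KO overlapped. The letter A lists held 20136 to 27927 peaks in WT and 12639 to 21875 in KO, and the letter B lists 10562 to 27335 and 1752 to 8216. The lists give no read totals, so the lowest background was recovered from fold and p-value. In letter A it was 1.65 to 2.2 reads in WT and 1.52 to 2.89 in KO libraries, and in letter B 1.97 to 3.07 and 1.02 to 1.51. From these follows the faintest summit fold that could be listed over that background, here called the lowest callable fold. It was 3.05 to 3.4 in WT and 3.05 to 3.55 in KO libraries of letter A, and 2.87 to 3.36 and 3.47 to 3.96 in letter B. The median WT fold of 494 of the 746 regions lay above this value in all 8 KO libraries. Of the 394 regions absent from letter A KO libraries, 352 had a median WT fold above the value of all 4 of those libraries. Both counts set WT folds against KO values without correction for enrichment between libraries. The median fold of the other regions that were called was 4.42 to 5.69 in letter A WT and 4.09 to 4.75 in letter A KO libraries. The counts therefore do not show that these regions could have been called in KO libraries. The lowest callable fold holds over the lowest background only and is not a strict limit. Fainter peaks were also listed, such as one at HHAT with a fold of 2.51 in KO esiHDAC4 OXPT A, whose value was 3.08.

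When every list was cut to the 1752 strongest peaks, the length of the shortest, 13 regions met the rule and none of them overlapped any of the 746, while 8 met the mirrored rule. In letter A alone, with all 8 lists at 12639 peaks, 870 regions were called in at least 3 more of the 4 WT libraries and 566 in at least 3 more of the 4 KO libraries, and 210 of the 746 (28.2%) overlapped the former. Using only peaks at or above a fold of 3.96, 399 regions met the rule and 117 of the 746 overlapped them. Without the 4 letter B KO libraries 546 regions met the rule at the same difference in share of libraries, and 473 of the 746 overlapped them. The part of depth in the presence difference was not tested beyond these values.

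The members with the widest contrast were 29 regions called in 8 WT and 0 KO libraries. The highest median fold was that of an intergenic region at chr5:175121144-175123592, 320.6 kb from the nearest protein-coding start site, that of the dopamine receptor gene DRD1. Its summit fold was 7.69, 6.37, 4.98 and 3.31 in esiCT UNT A, esiCT UNT B, esiCT OXPT A and esiCT OXPT B, and 7.43, 6.34, 5.93 and 3.73 in the corresponding esiHDAC4 libraries. Both untreated libraries were above both OXPT libraries in either silencing condition. These folds are not centred, and the typical fold fell after OXPT. In the limma test described below, the centred OXPT change of this region was −0.41 on the log2 scale, with an adjusted p of 0.448. A region at chr10:4661599-4664970, 121.7 kb from AKR1E2, a member of the aldo-keto reductase family, had folds of 7.2, 6.91, 3.94 and 5.12 in esiCT and 5.49, 6.54, 5.45 and 6.48 in esiHDAC4 cells, in the same order. Here the esiCT OXPT libraries were the lowest pair, and the esiHDAC4 libraries overlapped between treatments. Its centred OXPT change was −0.08 (adjusted p 0.913 by limma).

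At the start site of MPP3, which encodes a membrane-associated scaffold protein (chr17:43831839-43833122), the folds ran from 3.4 to 6.71 around a median of 4.88. In an intron of THADA (chr2:43468009-43470557) they ran from 3.01 to 6.43 around 4.83, and the lowest values, 3.01 and 3.12, were both those of OXPT A libraries. A region 262.5 kb from TGFBR2, the gene of the type II TGF-beta receptor (chr3:30342833-30344098), had a median of 4.61, with its lowest fold of 2.93 in esiHDAC4 OXPT A and its highest of 5.6 in esiHDAC4 OXPT B. For this region the letters of one condition therefore spanned the whole range of WT values. Another 6 regions had medians of 4.29 to 4.78. They were introns of DENND5B and of CHD2, a chromatin remodeller, and 2 further regions near DRD1. The last 2 were the start sites of ALOXE3, a lipoxygenase of the epidermal barrier, and of the divergent pair DNAJB1, an Hsp40 co-chaperone, and TECR, an enzyme of long-chain fatty acid elongation.

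**Figure D2:**
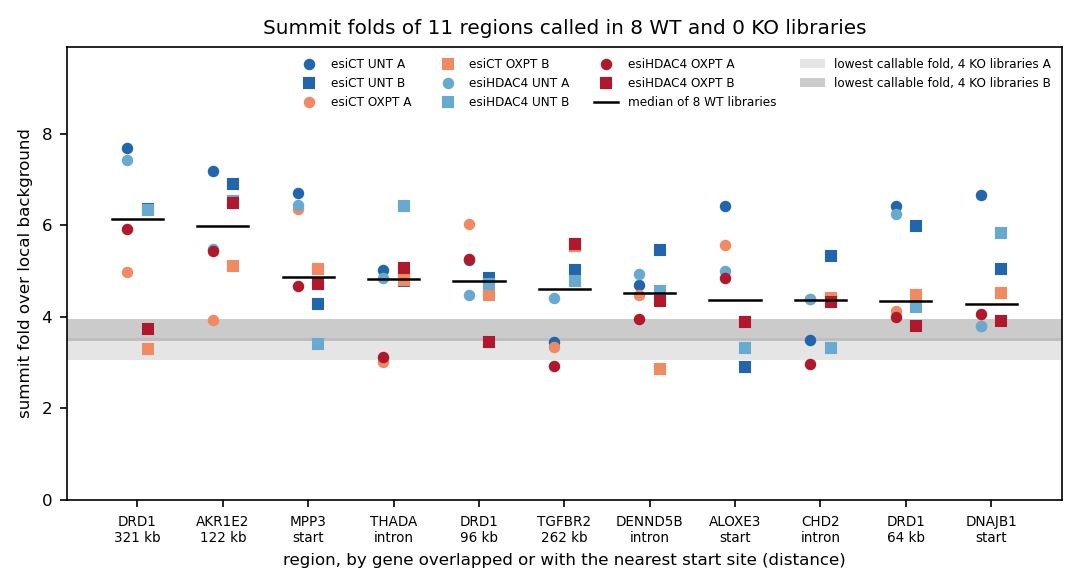
Summit fold over local background in the 8 WT libraries for 11 regions of high median fold among those called in 8 WT and 0 KO libraries; circles are letter A, squares letter B, bars the medians. The bands give the range of the lowest callable fold in the letter A (3.05 to 3.55) and letter B (3.47 to 3.96) KO libraries. That value holds over the lowest background only. The regions were picked for high medians, and all 11 medians, 4.29 to 6.13, lie above both bands. Single WT libraries reach into or below the bands. Folds are not corrected between WT and KO libraries, so the gap does not show that KO peaks could have been called.

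Over all 746 regions the median WT fold, taken over the WT libraries that called a region, had a median of 4.19 and ranged from 2.67 to 6.13. The other 9188 regions had a median of 4.62 and reached 9.4. Per library, the median fold of called WT-favoring regions was 3.88 to 4.71 in WT libraries, and that of called others 4.17 to 5.69. In the letter A KO libraries, the WT-favoring regions that were called had a median fold of 3.48 to 3.86 and the others 4.09 to 4.75. In the letter B KO libraries these ranges were 4.09 to 5.77, over only 2 to 42 called members, and 4.62 to 4.97. Median width was 1474 bp (347 to 5550 bp) against 2145 bp for the others.

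WT-favoring regions were less often at promoters than the other regions of WT cells. A start site of a protein-coding gene lay within 1 kb of 322 of the 746 (43.2%, exact binomial 95% interval 39.6% to 46.8%) and of 64.7% (63.7% to 65.7%) of the others. Of all 58859 regions, 28.9% lay at start sites. Introns held 26.4% of WT-favoring regions and 12.5% of the others, intergenic sequence 26% and 18.9%, and exons 4.42% and 3.93%. A distance over 100 kb from any start site was found for 72 (9.65%) and for 7.12% of the others. The intervals treat regions as independent, which neighbouring regions are not. The gap in start-site share depended on which peaks and libraries were used. With lists of equal length in letter A the shares were 64.6% and 67.2%, with a −log10 q of at least 5 they were 58.1% and 59.9%, and with letter B alone the order turned, at 57.9% and 51.3%. Without WT esiCT OXPT B, the shares were 53.1% and 64.9%.

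The share of regions that were WT-favoring was highest at a median WT fold over 3.5 and up to 4, lower above that, and higher away from start sites in each class of fold. Up to a fold of 3.5, 6.76% of start-site regions and 19.1% of regions farther away were WT-favoring. Of regions with a median WT fold over 3.5 and up to 4, 10.4% were WT-favoring at start sites and 21.1% farther away. Between 4.5 and 5 the values were 4.2% and 9.6%, and between 5 and 6 they were 1.92% and 2.3%. Above 6, 2 of 304 regions far from start sites and 0 of 293 at start sites met the rule. Those 2 were the region 320.6 kb from DRD1 and one 34.9 kb from PLEKHG6.

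**Figure D3:**
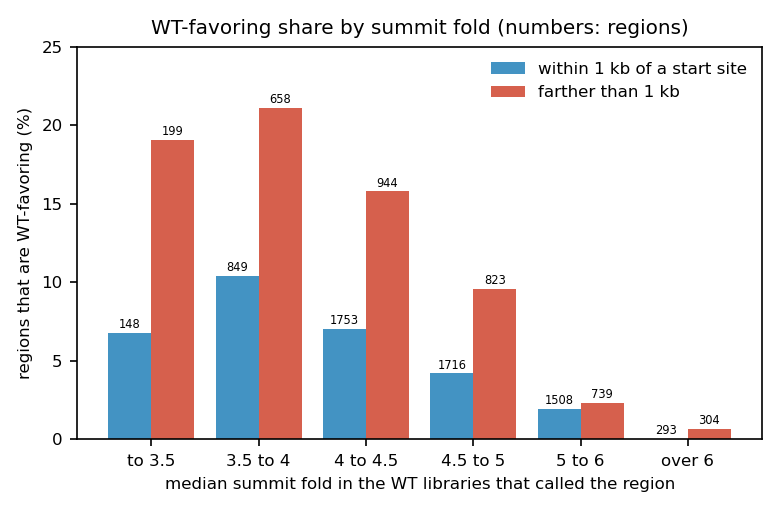
Percentage of regions called in at least 6 WT libraries that were WT-favoring, by median WT summit fold, within 1 kb of a start site (blue) and farther away (red), with the number of regions above each bar. The red bars exceed the blue ones in all 6 classes, and both series peak at a fold over 3.5 and up to 4 and are lowest above 6.

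The start-site members with the highest median fold were called in 6 to 8 WT and 0 to 2 KO libraries. At RNPC3, which encodes a protein of the minor spliceosome (chr1:103525726-103527052), the fold was 6.09, 5.85, 4.48 and 2.87 in esiCT UNT A, UNT B, OXPT A and OXPT B. It was 6.4, 5.75 and 5.63 in esiHDAC4 UNT A, UNT B and OXPT A, while esiHDAC4 OXPT B had no peak. The single KO library with a peak there, esiCT OXPT B, had a fold of 5.61, inside the WT range. H2AC18, a histone H2A gene with a median of 5.46, has an identical paralog, so its reads may be split between copies. The other start sites were those of VWA7 (5.61), RERE, a nuclear receptor corepressor (5.47), PHF12, a subunit of a Sin3 deacetylase complex (5.46), and MLLT1, a reader of acetylated histones (5.41). FYTTD1, an mRNA export factor, and RUBCN, a regulator of autophagy, shared a region of 5.41. COG5, a Golgi complex subunit, shared one of 5.39 with DUS4L, and PARP2, an enzyme of single-strand break repair, had 5.37. All values in parentheses are median WT summit folds, and MLLT1 was the only one of these 9 without a KO call.

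WT-favoring regions were found on every chromosome tested. Their share of the regions called in at least 6 WT libraries was lowest on chromosome 17 (36 of 762, 4.72%, exact 95% interval 3.33% to 6.48%) and 11 (5.54%, 3.74% to 7.87%). It was highest on chromosome 15 (37 of 274, 13.5%, 9.69% to 18.1%), followed by 21 (12.8%, 6.56% to 21.7%) and 13 (11.8%, 7.34% to 17.6%). The interval excluded the share of all chromosomes on chromosome 15, above it, and on chromosome 17, below it. The intervals were not corrected for the number of chromosomes, and they treat neighbouring regions as independent. On chromosome 15 the share was 10.4% at start sites and 19.6% elsewhere. On chromosome 10 it was 2.21% and 16.3%. Copy number of the 2 lines was not measured here, and its part in these shares was not tested.

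**Figure D4:**
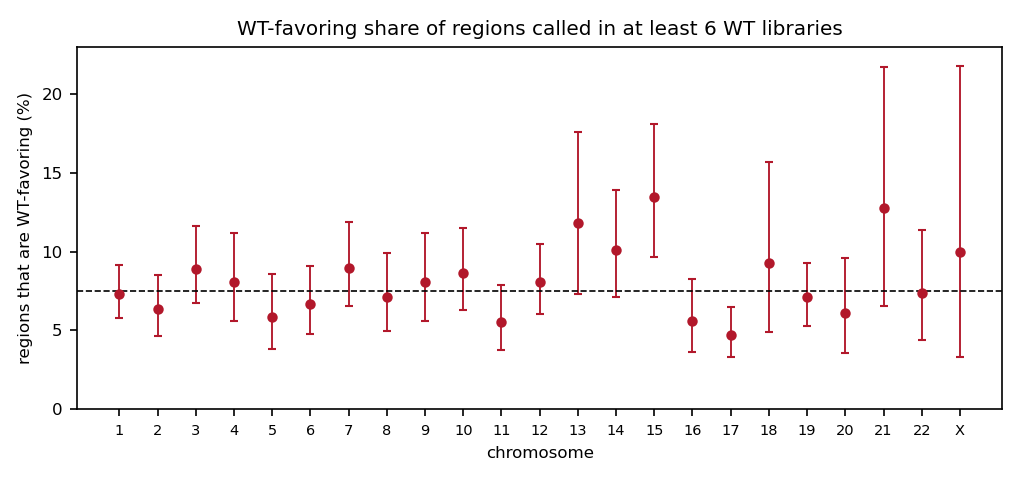
Percentage of regions called in at least 6 WT libraries that were WT-favoring on each chromosome, with exact binomial 95% intervals; the dashed line is the share over all chromosomes, 7.51%. Chromosome 15 (13.5%) lies above the line with its whole interval and chromosome 17 (4.72%) below it.

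Neighbouring regions more often shared the pattern when they were close. After a WT-favoring region, the next region along the chromosome was also WT-favoring in 79 of 743 cases (10.6%), against 7.26% after another region. For gaps of up to 20 kb the values were 39 of 219 (17.8%) and 6.11%. For gaps over 20 and up to 100 kb they were 9.68% and 6.91%, and beyond 100 kb 6.19% and 8.53%. Joining members less than 100 kb apart gave 645 loci, of which 567 held 1 member, 59 held 2, 16 held 3, 2 held 4 and 1 held 5, so that 179 members (24%) lay in loci of at least 2. Merging peaks within 500 bp before applying the rule left 632 regions, which overlapped 541 of the 746. The shares of neighbours and the loci were not computed again with that merging. Pieces of 1 acetylated stretch can therefore count as close neighbours here.

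The locus with most members was CDCP1, which encodes a transmembrane glycoprotein phosphorylated by Src family kinases. Between chr3:45091569-45143507, 5 of 7 regions called in at least 6 WT libraries were WT-favoring, 4 of them in introns and 1 over an exon, 2.9 to 54.0 kb from the start site. The region nearest the start site was called in 8 WT libraries with folds of 5.81, 4.91, 4.52 and 3.34 in esiCT and 5.82, 4.19, 4.59 and 3.76 in esiHDAC4 cells, in the order UNT A, UNT B, OXPT A, OXPT B. Its only KO call was in esiCT UNT A, with 4.24. The other 4 had no KO call and median WT folds of 3.74 to 4.33. Among those, the members at chr3:45104394-45105921 and chr3:45106206-45108105 lay close together and may be parts of 1 stretch. The 2 remaining regions of the gene body and the start site itself were called in both genotypes. An SE covered 3 of these members in 7 WT libraries and the one nearest the start site in 8 WT and 1 KO library.

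**Figure D5:**
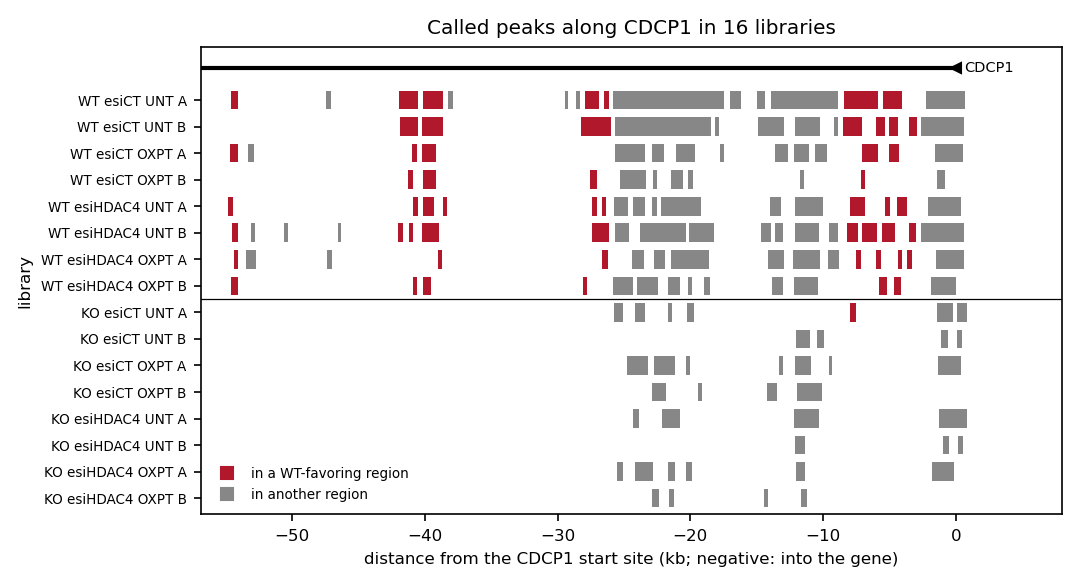
Called H3K27ac peaks along CDCP1 in the 16 libraries, placed by distance from its start site in kb, with the gene drawn on top. Red peaks belong to the 5 WT-favoring regions and grey peaks to other regions; below the line the KO libraries have 1 red peak, in esiCT UNT A, next to grey peaks at the start site and in the gene body.

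A stretch without protein-coding genes at chr10:90148374-90320939, between KIF20B and HTR7, held 4 WT-favoring regions out of 6. They lay 446.7 to 543.8 kb from the nearest start site. Median folds there were 4.69, 5.71, 3.93 and 5.35, and each had 1 or 2 KO calls, all in letter A. At chr5:175342762-175380556 all 4 regions were WT-favoring, called in 7, 8, 7 and 8 WT libraries and 0 KO libraries, with median folds of 4.32, 4.78, 4.88 and 4.35. They lay 63.6 to 99.8 kb from DRD1, on the same side as the region of highest fold described above. The first ended at 175344346 and the second began at 175344782. The third ended at 175378501 and the fourth began at 175379036. Such close neighbours may be parts of 1 acetylated stretch. A locus around MED16, ARID3A and ABCA7 on chromosome 19 had 3 of 10, one around FAM131C, EPHA2 and ARHGEF19 on chromosome 1 had 3 of 8, and one at MPP7 on chromosome 10 had 3 of 4. Altogether 569 protein-coding genes were overlapped by a member or had a start site in or within 1 kb of one, and 39 of them had 2 or more members. At MET, the hepatocyte growth factor receptor, 2 intronic members were called in 6 and 7 WT libraries and 0 KO libraries, with median folds of 3.48 and 4.0, and lay inside an SE in 6 and 7 WT libraries. At CHD2 3 intronic members with folds of 4.36, 3.62 and 4.32 had 0 KO calls and an SE in 6 WT and 0 KO libraries. MBNL2, a splicing regulator, had 3, one at a start site called in 8 WT and 0 KO libraries, each inside an SE in 7 WT libraries.

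Super-enhancers gave a second readout, though one built on the same peaks. In at least 1 WT library 254 members (34%) lay in an SE, against 27.2% of the 9188 other regions. In at least 1 KO library 65 members (8.71%) did, against 21.2%. An SE in WT and no KO library covered 191 members (25.6%) and 7.49% of the others, one in KO and no WT library covered 2 members, and 490 (65.7%, others 71.3%) lay in none. The lists differed in length, with 284 to 1265 SEs in WT, 287 to 930 in letter A KO and 66 to 435 in letter B KO libraries. Members inside an SE numbered 50 to 204 in WT libraries, 9 to 40 in letter A KO and 0 to 13 in letter B KO libraries. An SE in at least 6 WT libraries covered 71 members (9.52%) and 9.09% of the others, and 48 members (6.43%) and 0.435% of the others were covered in at least 6 more WT than KO libraries. SEs are joined from the called peaks that chose the members, so these shares are a description. The study kept SEs that also carried H3K4me1, and whether the deposited lists had passed that filter is unclear.

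Genes of pathways known from FBXW7 and colorectal cancer held 10 of the members. Of 196 genes in 13 lists, 128 had a region called in at least 6 WT libraries inside or within 10 kb, and 6 had a WT-favoring one. Over those genes 10 of 267 regions (3.75%) were WT-favoring, below the 7.51% of all regions. The listed regions were not matched to all regions for position or fold. Over all regions 5.14% at start sites and 11.6% farther away were WT-favoring. The lists of FBXW7 substrates, WNT targets, the NOTCH, TGF-beta and YAP pathways, AP-1 factors, p53 targets and G1/S cyclins had 0 members. Each of them had only 18 to 27 regions, too few to tell 0 from the share of all regions. In the lists that had members, 4.55% to 25% of the regions were WT-favoring, the highest share being 3 of 12 at mesenchymal genes. EHF, an epithelial ETS factor, had 2 of its 4 regions in the set, called in 7 and 8 WT and 0 KO libraries with median folds of 3.69 and 3.77. CAV2, a caveolin, had 3 of 8, with folds of 4.81, 4.2 and 4.26. AREG, a ligand of EGFR, had 1 of 2 (3.55), the ephrin receptor EPHA2 1 of 3 (4.63) and the class IIa deacetylase HDAC9 1 of 2 (3.91). The HDAC9 member was intronic and lay 221 kb from the nearest start site, that of TWIST1. Among marker genes, CLDN4 had 1 of 5 and VWF 1 of 1.

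At FBXW7 itself, 4 merged regions lay inside or within 10 kb of the gene, none was called in more than 4 WT libraries, and 0 were WT-favoring. A peak within 1 kb of any of its annotated start sites was found in 7 WT and 3 KO libraries. HDAC4 had 19 merged regions, of which 4 were called in at least 6 WT libraries and 0 were WT-favoring, and 7 WT and 3 KO libraries had a peak at one of its start sites. These peaks do not check the labels, since acetylation at a start site measures neither the KO nor the silencing. Within 1 Mb of MYC, an FBXW7 substrate, 2 intergenic or intronic members were found. One lay 121.1 kb from MYC and was called in 8 WT and 1 KO library with a median fold of 4.08, inside an SE in 7 WT and 0 KO libraries. The other, in POU5F1B, was called in 7 WT and 1 KO library with a fold of 3.24. A member also lay 113.7 kb from MED13, the gene of a Mediator kinase module subunit that is an FBXW7 substrate too. It was at chr17:62178946-62180448 and was called in 8 WT and 2 KO libraries with a fold of 4.36. An SE covered it in 7 WT and 0 KO libraries. The other regions near MYC and MED13 were not counted, so these members have no share beside them.

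Near the limit of the rule the regions were alike in fold. The 550 regions with a difference of 6 had a median of 4.15 and 45.5% lay at start sites, and the 1518 with a difference of 5 had 4.17 and 53%. The strongest just inside were the region near PLEKHG6 (chr12:6271662-6275551), with 7 WT libraries at 5.26 to 7.48 and KO esiHDAC4 OXPT A at 4.06, and RNPC3. The strongest just outside were the start sites of BCKDK, called in 7 WT and 2 KO libraries with a median of 7.69, and of RNH1, called in 7 and 2 with 6.31.

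Whether OXPT or HDAC4 silencing changed summit fold at these regions was tested inside WT cells, which the rule did not compare. The test used 3705 regions called in all 8 WT libraries, 220 of them WT-favoring, with limma on log2 fold centred on each library's median and the letter as a block. At an adjusted p under 0.05 (Benjamini-Hochberg over 3705 regions), 0% of the regions and 0 of the 220 members were called for OXPT against UNT, for esiHDAC4 against esiCT and for the interaction of both. The smallest adjusted p was 0.0722, 0.866 and 0.76. At an unadjusted p under 0.05 OXPT gave 333 regions (8.99%), 195 with higher and 138 with lower fold. Among them were 27 members (12.3%), of which 24 had higher and 3 lower fold. The median change of the 220 members was 0.09 on the log2 scale (−0.52 to 0.70), and 144 of them (65.5%) were above 0, against 49.8% of all 3705. Regions needed a peak in all 8 WT libraries, so folds too faint to be called are missing from these changes. What part this had in the shares was not tested. Without centring, the median change after OXPT was −0.25 over all regions and −0.17 over the members, so the members' values above 0 are relative to a fall in the typical fold. HDAC4 silencing gave 208 regions (5.61%) and 22 members (10%), 11 in each direction, with a median member change of 0 on the log2 scale. The interaction gave 198 regions (5.34%) and 12 members (5.45%), with a median of −0.05. With 2 libraries a group, a p over the threshold does not show that the folds were equal.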

How the data were processed

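H3K27ac ChIP-seq peaks were analysed in 16 HCT-116 libraries, 2 for each of 8 groups taken from the labels. Reads were cleaned by the authors with Trimmomatic 0.39 and mapped to hg38 with Bowtie2 2.4.4. Duplicates were taken out with SAMtools 1.18, and MACS2 2.2.7.1 called the peaks of each library on its own. SEs were joined with ROSE, and the deposited SE lists hold positions only. In the deposited peak lists column 7 is the fold, a ratio of summit pileup to local background, with p and q as −log10. Each peak also carries a deposited score, a whole number derived from q. A fold belongs to 1 library and is not corrected for depth between libraries. Input libraries and read counts were not used, and no model of counts was run.

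Positions are hg38, numbered from 1, and every peak used ended inside the reference chromosomes. Genes came from GENCODE version 44 (protein-coding), and distal means farther than 1 kb from a start site. Background reads and the lowest callable fold were recovered from the pair of fold and −log10 p where the latter was below 60, to within 0.01. Between 99.5% and 100% of the peaks of a library were solved, after the pileup of WT esiCT UNT B was scaled by 0.968. Folds were tested with limma 3.58.1 in R 4.3.3 in the design of the study, condition plus replicate, with a threshold of 0.05 on the adjusted p. The letter was kept as a block because the differences between A and B correlated across the 4 WT conditions (r 0.249 to 0.336 over regions, 6 pairs of conditions). The recovery of background reads, the merging with its rule and the OXPT contrast were tested on simulated data. In the simulated OXPT contrast, 14% of changes of 0.5 and 78% of changes of 1 on the log2 scale were recovered.

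The rule, the lists of genes and the tests were chosen with earlier results of these data known. Genes and regions were named by rank of median WT fold among members called in 8 WT and 0 KO libraries (12), at start sites (10) and just inside and outside the rule (2 each), by number of members in a locus (6), and by the gene lists. Some of the items these rules chose are not reported here. The regions near MYC and MED13 and the genes MET, CHD2 and MBNL2 fall outside this rule and were chosen after their values were seen.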

Additional observations from a re-analysis of the deposited data

Results flagged for a closer look

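In 47 sets of up to 8 libraries of 1 genotype, 1 library stood far from the others. Chance gives about 1 in 20 sets, so 1 in 47 is not above that rate. The sets also share libraries and are not independent. WT esiCT OXPT B called 449 of the 746 WT-favoring regions, against 625 to 730 in the other 7 WT libraries. Its list was also the shortest of the WT lists, with 10562 peaks.

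After OXPT in esiCT cells, the number of WT-favoring regions called changed by −60 and −278 in WT letters A and B and by 169 and 25 in KO letters A and B, so both pairs of one genotype moved against both pairs of the other. The difference was not tested. The other 9188 regions moved alike, from 9113 to 8650 and from 9081 to 4892 in WT, and from 6057 to 8480 and from 2935 to 3995 in KO. In esiHDAC4 cells the WT pairs changed by −21 and −98 and the KO pairs by −68 and 10.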

How the results depend on the processing

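The number of WT-favoring regions, 746, moved to 13 with lists of equal length, 277 and 27 with a −log10 q of at least 5 and 10, 309 when peaks had to cover at least 50% of a region, 2264 and 196 at a difference of at least 5 and 7 libraries, 1888 in letter A alone, 6694 in letter B alone and 399 at a fold of at least 3.96. The last, the loss of the letter B KO libraries and the equal lists of letter A were chosen after seeing the data. Leaving out each library in turn at a share difference of 0.75, a stricter rule by construction with 7 libraries in one arm, gave 349 to 785 regions, and 12 of the 16 libraries moved the count by over 1.5 times. These were all but WT esiCT OXPT B, KO esiCT OXPT A, KO esiHDAC4 UNT A and KO esiHDAC4 OXPT A.

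The start-site share, 43.2%, moved to 38.5% with lists of equal length, 58.1% and 22.2% with a −log10 q of at least 5 and 10, 53.4% with at least 50% coverage, 49.8% and 36.7% at differences of 5 and 7, 57.9% in letter B, 64.6% with equal lists in letter A, 60.7% at a fold of at least 3.96 and 23.2% when the start site had to lie inside the region. Leaving out 1 library gave 39.5% to 53.1%. It stayed below the share of the other regions in 29 of 31 alternatives, the exceptions being letter B alone and lists of equal length (5 of 13 regions, against 35.7%).

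For OXPT against UNT within WT, 0 calls became 174 without centring (3 higher, 171 lower), 1 at a median fold of at least 5 and 1 with regions called in at least 6 WT libraries. Leaving out 1 library gave 0 to 10 calls, 10 without WT esiHDAC4 UNT A. The other 2 contrasts had 0 calls in all 14 alternatives each. Without the replicate block OXPT again had 0 calls, with a smallest adjusted p of 0.463 by limma. The cause of these shifts was not tested. Background reads were lowest in the letter B KO libraries, at 1.02 to 1.51.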
